A study of Mus musculus with 20 samples.

Results

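Oxidative phosphorylation subunits are the proteins of the 5 complexes of the mitochondrial inner membrane, and the genes described here encode the ones made from nuclear DNA. They were taken by gene symbol from the count tables: the Nduf subunits of complex I, Sdha to Sdhd of complex II, the Uqcr genes and Cyc1 of complex III, the Cox5 to Cox8 genes of complex IV, the Atp5 genes of complex V, and Cycs. The rule used names only and no measured value. It found 91 of 55416 genes in the tables of the whole-body line, of which 40 were counted with complex I, 4 with complex II, 9 with complex III, 19 with complex IV (Ndufa4 and Ndufa4l2 among them) and 18 with complex V, with Cycs on its own. The tables of the beta-cell line held 83 of the 91 among 16284 genes.

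The libraries were poly(A)-selected RNA of isolated islets from 20 C57BL/6J mice. CPEB1 is an RNA-binding protein that acts on the poly(A) tails of mRNAs. The whole-body line had 3 mice in each of 4 groups: Cpeb1 KO/KO females aged 98 to 188 days, Cpeb1 +/+ females aged 109 to 188 days, Cpeb1 KO/KO males aged 111 to 155 days and Cpeb1 +/+ males aged 111 to 123 days. The beta-cell line had 2 mice in each of 4 groups. Its knockouts were Cpeb1 flx/flx with Ins1-Cre, a recombinase directed to beta cells by Ins1, and its controls were Cpeb1 +/+ with Ins1-Cre/+, so that both carried the recombinase. Females of that line were aged 107 and 108 days and males 80 and 111 days in both genotypes. The recombinase acts in beta cells, whereas the libraries held whole islets with their other cells. Line coincided with batch, so levels were not compared between lines.

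Electrons enter the chain at complex I from NADH and at complex II from succinate, pass through complex III to cytochrome c, and are handed to oxygen at complex IV. Complexes I, III and IV pump protons, and complex V, the ATP synthase, uses the gradient to make ATP. In beta cells the ATP made this way closes a potassium channel and so couples glucose to insulin release. Complexes I, III, IV and V also hold subunits encoded in mitochondrial DNA, whereas complex II holds none.

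The promoters of Cycs and Atp5g1 are shown because they are the members called in a comparison (males against females of the whole-body line, described below with its limits). Cycs encodes cytochrome c, and Atp5g1 encodes one of the precursors of subunit c, which forms the rotor ring of complex V. Both genes lie on the minus strand of GRCm38 (mm10), Cycs at chr6:50562563-50566538 and Atp5g1 at chr11:96068852-96075670. The windows end at the RefSeq start of Cycs (GRCm38.p6, chr6:50566570-50566819) and just before the GENCODE gene model of Atp5g1 (chr11:96075671-96075881), and read 5′ to 3′ on the gene's strand. Capitals mark matches on either strand to the motifs named after them. An antisense non-coding gene, 5430402O13Rik, starts within the Cycs window on the other strand.
Cycs: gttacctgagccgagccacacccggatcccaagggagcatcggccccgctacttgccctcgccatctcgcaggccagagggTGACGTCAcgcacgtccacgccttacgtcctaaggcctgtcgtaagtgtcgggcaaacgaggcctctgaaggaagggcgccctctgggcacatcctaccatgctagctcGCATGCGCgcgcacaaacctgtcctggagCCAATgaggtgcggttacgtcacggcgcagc
Atp5g1: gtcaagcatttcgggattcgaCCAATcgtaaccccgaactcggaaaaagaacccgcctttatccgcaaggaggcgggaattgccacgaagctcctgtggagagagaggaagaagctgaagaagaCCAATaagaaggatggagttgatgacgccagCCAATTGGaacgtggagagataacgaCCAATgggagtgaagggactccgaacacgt

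The Cycs window held 1 match to TGACGTCA, the cyclic AMP response element, 162 to 169 bases before the start, 1 to GCATGCGC, a core of the motif of NRF1 (nuclear respiratory factor 1), at 53 to 60 bases, and 1 to CCAAT at 27 to 31 bases. The Atp5g1 window held 5 matches to CCAAT, of which 2 overlap, and none to the other motifs searched. Over the 250 bases before the start of 75 RefSeq windows of 70 member genes, the longer NRF1 motif, the core with GC before it and any base in place of its T, was found in 14 windows, or 18.7%, against 5.18% of 21263 windows of protein-coding genes. The core GCATGCGC, whose matches can overlap those of the longer form, was in 12% against 2.93%, TGACGTCA in 6.67% against 1.92%, the ETS motif CCGGAAG in 16.0% against 8.98%, and TCAAGGTCA, the element of the oestrogen-related receptors, in 1.33% against 0.32%. CCAAT was in 42.7% against 35.4%, and the GC box GGGCGG, in 33.3% against 42.6%, was the 1 motif of those searched with a lower share among members. Both strands were searched, and a match describes letters in a window, not a bound site.

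Most members were expressed at substantial levels in islets. Levels are given as CPM (counts scaled to library size, with TMM factors), and between genes only as CPM per kilobase of merged exons. In the whole-body line complex V held the highest member, Atp5a1, the alpha subunit of its catalytic head, at 165.1 ± 19.8 CPM per kilobase (SD, n = 12), followed within the complex by the beta subunit Atp5b at 117.6 ± 20.8. Ndufa1, an accessory subunit of complex I, stood at 135.6 ± 29.6, and Cox8a, Cox7a2l and Cox6b1 of complex IV at 131.8 ± 14.7, 130.3 ± 20 and 117.7 ± 18.1. The SDs are over libraries that all genes share, so they do not settle the order of these genes, which was not tested. Atp5g1 at 16.9 ± 3.4 was the lowest member of complex V with any counts, and Ndufb2 at 3.93 ± 0.63 the lowest of complex I above 1 CPM.

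**Figure D1:**
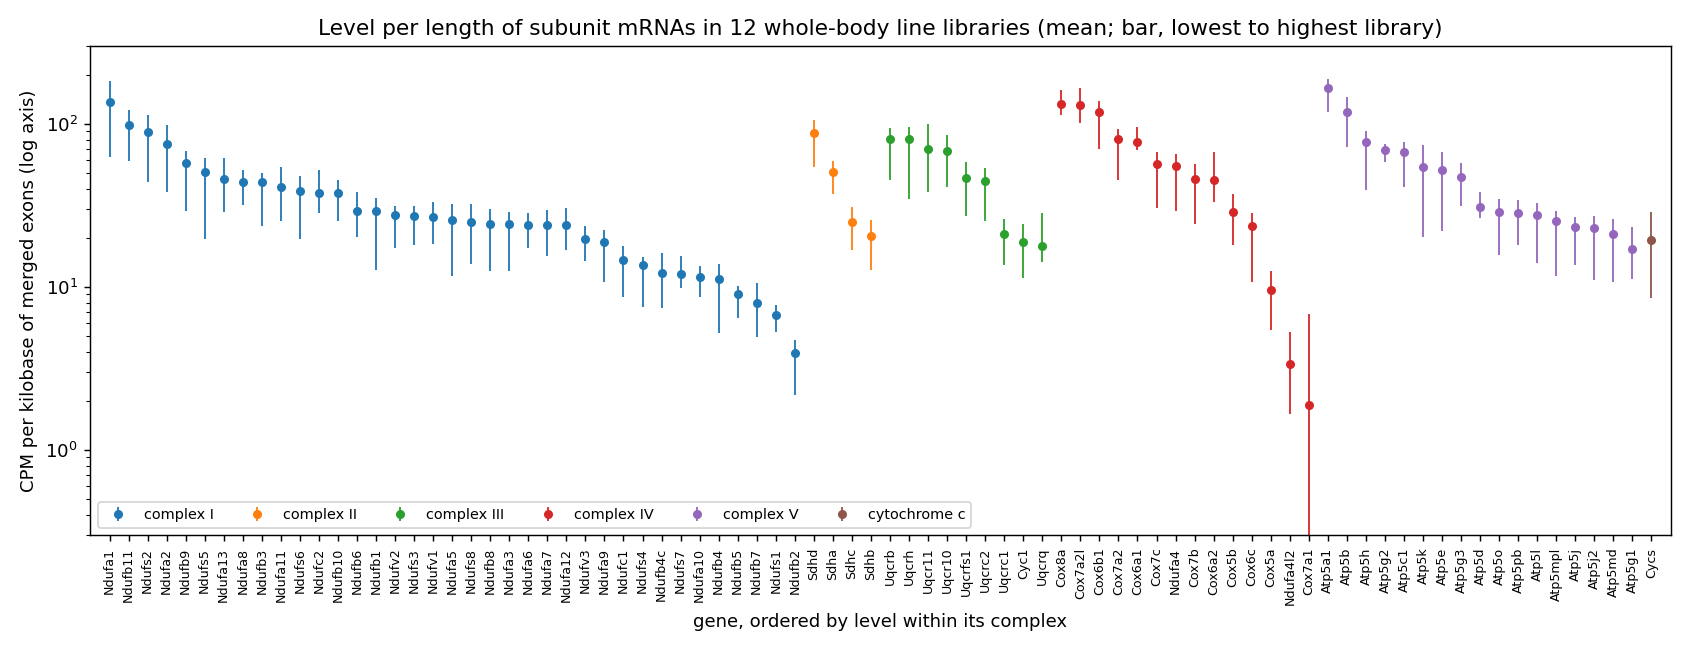
Level of each member with a mean of at least 1 CPM in the 12 libraries of the whole-body line, as CPM per kilobase of merged exons on a log axis, ordered within each complex. Points are means and bars run from the lowest to the highest library (the lowest is 0 for Cox7a1, off the log axis). Levels within complexes I, IV and V spread widely, from 3.93 for Ndufb2 to 135.6 for Ndufa1 in complex I.

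Complex II ran in the order Sdhd, a membrane anchor, at 87.7 ± 12.4 CPM per kilobase, Sdha, the flavoprotein, at 50.4 ± 6.0, Sdhc, the other anchor, at 24.9 ± 3.8, and Sdhb, the iron-sulfur subunit, at 20.4 ± 3.1 (SD, n = 12). Sdhc and Sdhb lay within their summed SDs, and the others were further apart, but the order within libraries was not tested. In complex III the levels ran from Uqcrb, which binds ubiquinone, at 80.8 ± 13.0 down to Uqcrq at 17.7 ± 4.0. Cyc1, the cytochrome that passes electrons on to cytochrome c, stood at 18.7 ± 3.6 and Cycs itself at 19.3 ± 5.5. Lengths matter to these values: with the principal transcript in place of merged exons, Atp5l went from 27.4 to 324.9 CPM per kilobase and Atp5b from 117.6 to 260.2, so that Atp5l and not Atp5a1 led.

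Complex IV has subunits with tissue-specific forms, and in islets the general form led in each set, by the least in that of Cox6a. Cox7a2 stood at 80.1 CPM per kilobase against 1.88 for the heart and muscle form Cox7a1, Cox8a at 131.8 against 0.179 for Cox8b, Cox6b1 at 117.7 against 0.239 for the testis form Cox6b2, and Ndufa4 at 55.3 against 3.36 for Ndufa4l2. Cox6a2, known as the heart and muscle form, was at 45.5 ± 9.9 beside 77.6 ± 7.8 for the general form Cox6a1 (SD, n = 12). Cox6a2 was detected in every library, at 22.4 to 45.4 CPM in the whole-body line and 17.0 to 41.7 CPM in the beta-cell line. The muscle and fat marker list summed to 6.00 to 39.1 CPM over its 8 genes in the whole-body line, and its part in the level of Cox6a2 was not tested.

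Cox7a1 was unevenly spread. It stood at 2.23 CPM in knockout male 1, 3.64 in knockout male 3 and 2.97 in control female 3, and at 0.619 or less in the other libraries. Control female 1 held no count of it, and the 3 high libraries came from 2 groups that share neither genotype nor sex. Muscle and fat markers summed to 28.3, 16.5 and 34.0 CPM in those 3 libraries, and to 32.5 and 39.1 CPM in knockout females 2 and 3, where Cox7a1 was low. In the beta-cell line Cox7a1 stayed between 0.251 and 0.829 CPM.

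The 3 genes for subunit c of complex V, Atp5g1, Atp5g2 and Atp5g3, encode the same mature protein from different precursors. Atp5g2 was at 68.7 ± 4.5 CPM per kilobase, Atp5g3 at 46.9 ± 7.2 and Atp5g1 at 16.9 ± 3.4 (SD, n = 12). Atp5g2 was the most even of all members of at least 1 CPM in the whole-body line, with a coefficient of variation of 4.79% over the 11 libraries other than control female 1. The median over the 82 such members was 11.02%. Cycs, at 22.2%, was among the more variable ones.

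A few members that the rule admits are barely expressed or are not ordinary subunit genes. Cox8c, Ndufb11b, Ndufa11b and a second gene identifier of Atp5o had 0 counts in all 12 whole-body libraries, which allows up to 3 counts per library. Ndufs6b had 3 counts in all, Cox7b2 11 and Cox6c2 25. The annotation classes Cox6c2, Ndufa11b, Ndufb4c and Ndufs6b as processed pseudogenes, and Ndufb1 as a non-coding transcript of a bidirectional promoter. Reads of such copies and of their parent genes could have been split by the counting. A filter on low counts kept 84 of the 91 in the whole-body line, and all 83 in the beta-cell line.

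In total, members took 0.604% to 0.775% of the counts in 11 of 12 whole-body libraries, and 0.602% to 0.700% in the beta-cell line. Total counts ran from 41756830 to 112320368 per library in the whole-body line and from 40124922 to 101458838 in the beta-cell line. Control female 1 of the whole-body mice differed from the rest. The ribosomal RNA gene Rn18s took 60.5% of its counts and the members 0.137%, and after scaling 81 of 84 members lay below their own mean over the line. The median member was at -0.69 (log2) there and between -0.09 and 0.24 in the other 11 libraries. The members' summed level was 3777 CPM in control female 1 against 5573 to 7060 CPM in the others, and each of complexes I to V had its lowest summed level in that library. In the beta-cell line the median member stayed between -0.10 and 0.11. Cpeb1 RNA itself stood at 24.99 to 38.04 CPM in whole-body knockouts and 38.3 to 65.3 in controls, without overlap, and at 27.7 to 30.3 against 50.8 to 69.2 in the beta-cell line. These gene totals include any exons that the knockout leaves. Comparisons in the whole-body line are given with and without control female 1.

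**Figure D2:**
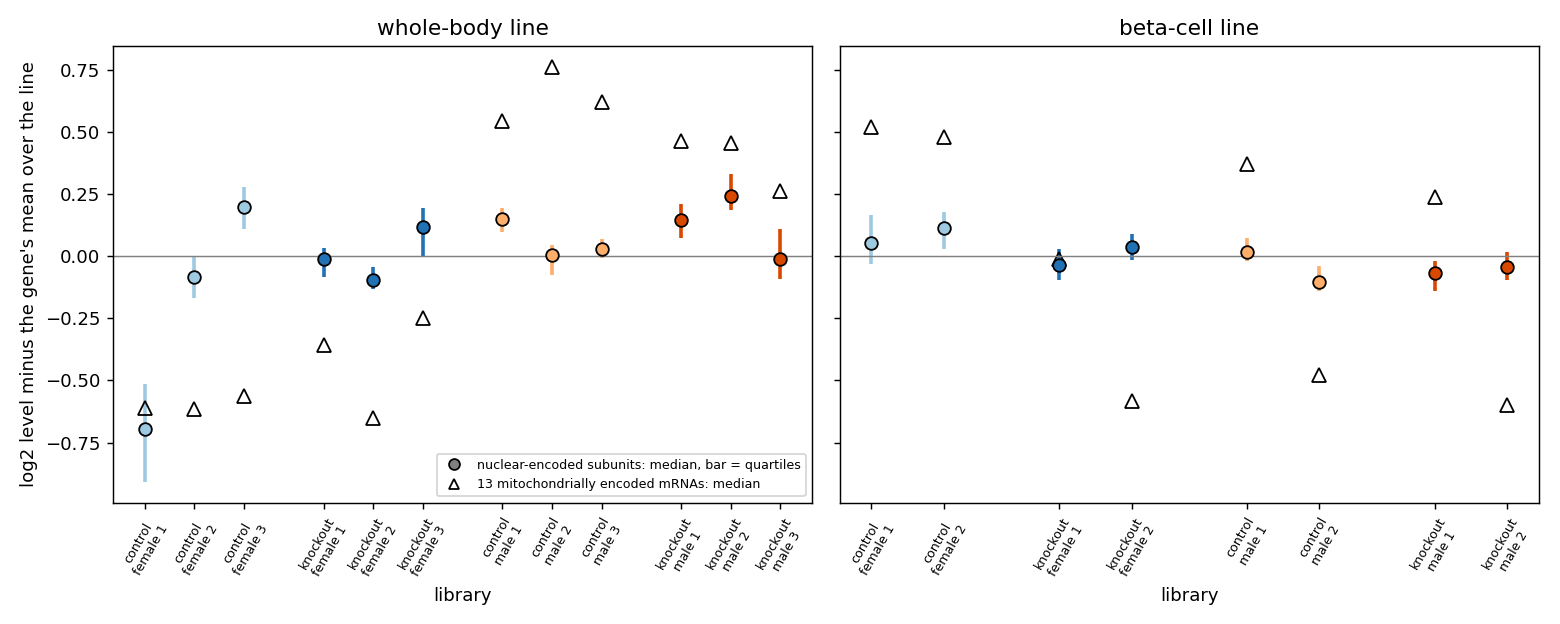
Median log2 level of the members in each library relative to each gene's mean over its line (circles, with bars for the quartiles over members), and the same for the 13 mitochondrially encoded mRNAs (triangles). Control female 1 of the whole-body line lies lowest for the members, at -0.69, whereas the triangles of that line separate females, all below 0, from males, all above 0.

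The first question was whether loss of Cpeb1 changed these mRNAs. In the whole-body line 0 of 84 members were called in the mean knockout effect over both sexes (edgeR quasi-likelihood test, Benjamini-Hochberg adjusted p under 0.05 over 18359 genes), where 0.0327% of all genes were called. At an unadjusted p under 0.05 there were 2 members, both higher in knockouts, or 2.38% against 5.9% of all genes. The members' estimates leaned upwards: 76 of 84 were above 0, with a median of 0.116 (log2) against 0.017 over all genes tested. By complex the median was 0.100 for complex I, 0.043 for II, 0.113 for III, 0.169 for IV and 0.168 for V. Without control female 1 the median of all members was 0.010, and without control female 3 it was 0.234. Mitochondrial ribosomal proteins had a like median of 0.100, cytosolic ribosomal proteins one of 0.105 and the proteasome one of 0.124. In females alone these lists had medians of 0.127, 0.256 and 0.219, beside 0.141 for the members. In males alone they had 0.065, -0.046 and 0.012, beside 0.090 for the members.

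Cycs had the smallest p in that comparison. It stood at 62.9, 58.1 and 54.0 CPM in females without Cpeb1 and at 29.0, 47.0 and 59.2 in their controls. In males it was 78.1, 90.4 and 97.7 CPM in knockouts against 74.6, 68.6 and 69.4 in controls. The knockout males were all above the control males, while the female groups overlapped. The log2 difference was 0.35 (SE 0.14, edgeR adjusted p = 0.796), and it was 0.22 without control female 1. In the beta-cell line Cycs was nearly flat, between 56.4 and 61.8 CPM in all 8 libraries, with a difference of -0.02 (SE 0.07, edgeR adjusted p = 1.00).

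Among the other complexes, the members with the smallest p in each direction were not called. Ndufa1 of complex I was at 0.30 (log2, SE 0.16) and Ndufs7, an iron-sulfur subunit of complex I, at -0.11 (SE 0.12). Sdhc was at 0.13 (SE 0.09), Uqcrb at 0.17 (SE 0.12), Uqcrq at -0.03 (SE 0.16), Atp5b at 0.19 (SE 0.11), Atp5d at -0.01 (SE 0.11) and Cox6a1 at -0.06 (SE 0.08), with edgeR adjusted p between 0.872 and 0.991. None of these differences passed the test against the spread between mice. Cox8b was at 1.21 (SE 0.52, edgeR adjusted p = 0.818), but it had only 85 counts in all 12 libraries. No member had knockout and control libraries of the line without overlap, in either direction, where 0.207% of all genes had all knockouts higher and 0.125% all knockouts lower.

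The intervals say how large a change could have gone unseen. For 68 of 84 members the 95% interval of the mean knockout effect lay inside a change of 1.5-fold in either direction, and for the other 16 it reached that size. Within females alone 38 of 84 intervals lay inside it, and within males alone 50. Both sexes gave 0 called members, where 0.00545% of all genes were called in females and 0.0218% in males. The median over members was 0.141 in females and 0.090 in males. In females it was -0.063 without control female 1 and 0.420 without control female 3, so its direction rests on single libraries. The male minus female difference of the knockout effect had a median of -0.058, with 0 members and 0.0% of all genes called.

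**Figure D3:**
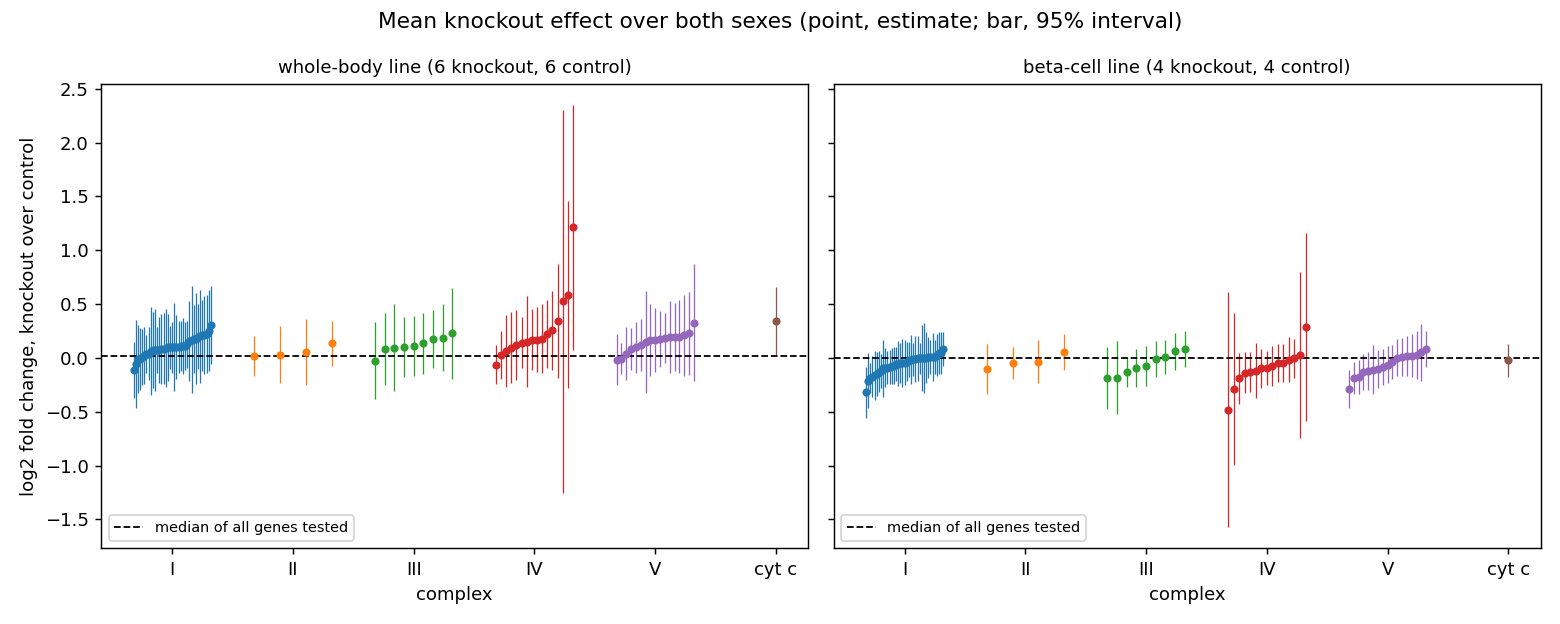
Log2 fold change of knockout over control, mean of both sexes, for each member tested, by complex, in the whole-body line (left) and the beta-cell line (right). Points are edgeR estimates, bars 95% intervals and the dashed line the median of all genes tested. Most estimates lie above the line on the left (76 of 84 above 0) and below it on the right (59 of 83 below 0), and no member was called in either line.

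In the beta-cell line 0 of 83 members were called in the mean knockout effect, where 0.0368% of all genes were called. At an unadjusted p under 0.05 there were 5 members, all lower in knockouts: Atp5k, Ndufc2, Ndufv3, Atp5g1 and Atp5g2. They made up 6.02% of the members tested, against 3.65% of all genes in either direction. Here 59 of 83 estimates were below 0, with a median of -0.050 (log2) against 0.003 over all genes tested. It was -0.081 without control male 2 and -0.027 without control male 1. Cytosolic ribosomal proteins leaned further, with 75 of 76 below 0 and a median of -0.103. Acinar markers were above 0 in 27 of 28 cases, while all 10 endothelial and all 6 delta and PP cell markers were below 0, with 0 called in each list, and the part of these lists in the members' lean was not tested beyond the acinar covariate, with which the members' median was -0.050. The median was -0.046 for complex I, -0.040 for II, -0.076 for III, -0.090 for IV and -0.061 for V. For 79 of 83 members the 95% interval lay inside a 1.5-fold change.

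Atp5k, the subunit e that takes part in holding ATP synthase dimers together, had the smallest p. Among females it stood at 32.6 and 30.7 CPM with the deletion against 44.0 and 39.4 without. Among males the values were 32.8 and 35.8 against 39.8 and 38.0 CPM. All 4 knockouts were below all 4 controls, at -0.29 (log2, SE 0.08, edgeR adjusted p = 1.00). Ndufv3, a small subunit of the NADH-binding part of complex I, stood at 67.0 to 70.5 CPM in the 4 knockouts and 75.3 to 81.6 in the 4 controls, at -0.18 (SE 0.06, edgeR adjusted p = 1.00). These 2 members were the only ones of 83 without overlap, both lower in knockouts, where 1.05% of all genes were lower in this way and 1.19% higher. In the whole-body line the groups overlapped for both: Atp5k spanned 30.2 to 45.5 CPM in knockouts and 12.4 to 42.4 in controls, and Ndufv3 51.9 to 71.6 and 45.8 to 74.7.

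The other members with the smallest p in each direction were not called either. Ndufc2 of complex I was at -0.32 (log2, SE 0.10), Uqcrh of complex III at -0.13 (SE 0.06), Cox6a1 at -0.19 (SE 0.10) and Sdhc at -0.10 (SE 0.10). On the other side Ndufs1, an iron-sulfur subunit of complex I, was at 0.08 (SE 0.07), Uqcrc2, a core protein of complex III, at 0.09 (SE 0.07), Sdha at 0.05 (SE 0.07), Atp5c1 at 0.08 (SE 0.07) and Cox7a1 at 0.29 (SE 0.38), and the edgeR adjusted p was 1.00 for all of these. Females had a median of -0.092, with 0.0123% of all genes called, and males one of -0.028, with 0.0% called, and no member was called in either sex. The male minus female difference had a median of 0.076, with 0 members and 0.0% of all genes called.

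The estimates of the lines leaned in opposite directions, except that with the acinar level as a covariate the whole-body median was -0.052, below 0 like the beta-cell one. Acinar sums did not overlap between the genotypes in whole-body males, so that fit separates acinar level and genotype poorly there. The difference between the mean knockout effects of the lines was tested directly. It was below 0 for 80 of 83 members, with a median of -0.165 (log2), and 0 members were called, where 0.0184% of all genes were. At an unadjusted p under 0.05 there was 1 member, Ndufc2, at -0.35 (SE 0.16, edgeR adjusted p = 0.974). Across all genes 3.41% were at that threshold. The median was -0.083 without control female 1 of the whole-body line, -0.282 without control female 3 and -0.035 with the acinar covariate. In the same contrast 27 of 28 acinar markers were above 0, with a median of 3.334, and 74 of 76 cytosolic ribosomal proteins were below 0, with a median of -0.204.

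More genes of the whole-body line were called between the sexes than between the genotypes. Of 84 members 2 were called, Cycs and Atp5g1, both higher in males, where 5.65% of all genes were called and 3.49% were called higher in males. The members' share, 2 of 84, was thus not above that of all genes. Of the 84 estimates 78 were above 0, with a median of 0.171 (log2) against -0.022 over all genes tested, and at an unadjusted p under 0.05 there were 11 higher and 1 lower in males. These 12 were 14.3% of the members, against 23.1% of all genes. All 9 members tested of complex III and all 17 of complex V were above 0. Without control female 1 the median was 0.057, and without control female 3 it was 0.302. Females of this line were aged 98 to 188 days and males 111 to 155 days. Age was not a covariate in the comparison of the sexes, and its part was not tested.

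Cycs averaged higher in males of both genotypes: its 6 male libraries lay between 68.6 and 97.7 CPM and its 6 female libraries between 29.0 and 62.9, without overlap. The log2 difference was 0.63 (SE 0.14, edgeR adjusted p = 0.0325), and 0.51 without control female 1 (adjusted p = 0.0185). Among females Atp5g1 stood at 72.5, 69.8 and 70.3 CPM with the knockout and at 54.7, 71.5 and 83.4 CPM in controls. Among males it stood at 92.2, 114.3 and 87.9 CPM with the knockout and at 107.2, 82.4 and 92.3 CPM in controls. Control female 3 overlapped with control male 2, and the other females lay below all males. The difference was 0.45 (SE 0.11, edgeR adjusted p = 0.0434), and 0.37 without control female 1 (adjusted p = 0.054).

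Both calls were sensitive to single mice. Leaving out 1 library left 0 members called in 9 of 12 cases, namely each of the knockout females, knockout males 2 and 3, control female 2 and each of the control males. In those 9 runs 1.64% to 7.58% of all genes were called, against 5.65% with all libraries. Cycs alone remained without knockout male 1, Cycs and Atp5b were called without control female 1, and 12 members were called without control female 3. Of all genes 6.31% were called without knockout male 1, 6.22% without control female 1 and 8.87% without control female 3. The direction of Cycs and Atp5g1 was the same in all of them, with log2 differences of 0.51 to 0.76 and 0.37 to 0.54. With DESeq2 there were 5 called members, Cycs, Atp5g1, Atp5b, Sdha and Sdhc, where 2604 of 28671 genes (9.08%, those without an adjusted p included in the total) were called.

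The last 3 of those stood next in order in edgeR. Atp5b was at 0.37 (log2, SE 0.11, adjusted p = 0.068), Sdhc at 0.31 (SE 0.09, adjusted p = 0.081) and Sdha at 0.25 (SE 0.09, adjusted p = 0.107). Sdha stood at 211.0 to 242.6 CPM in the 6 males and 152.1 to 208.5 in the 6 females, so it shared with Cycs the lack of overlap, which 3.45% of all genes showed with males higher. No member had all males lower, as 1.87% of all genes did. The 1 member lower in males at an unadjusted p under 0.05 was the scarce Cox8b, at -1.67 (SE 0.51, adjusted p = 0.0837).

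**Figure D4:**
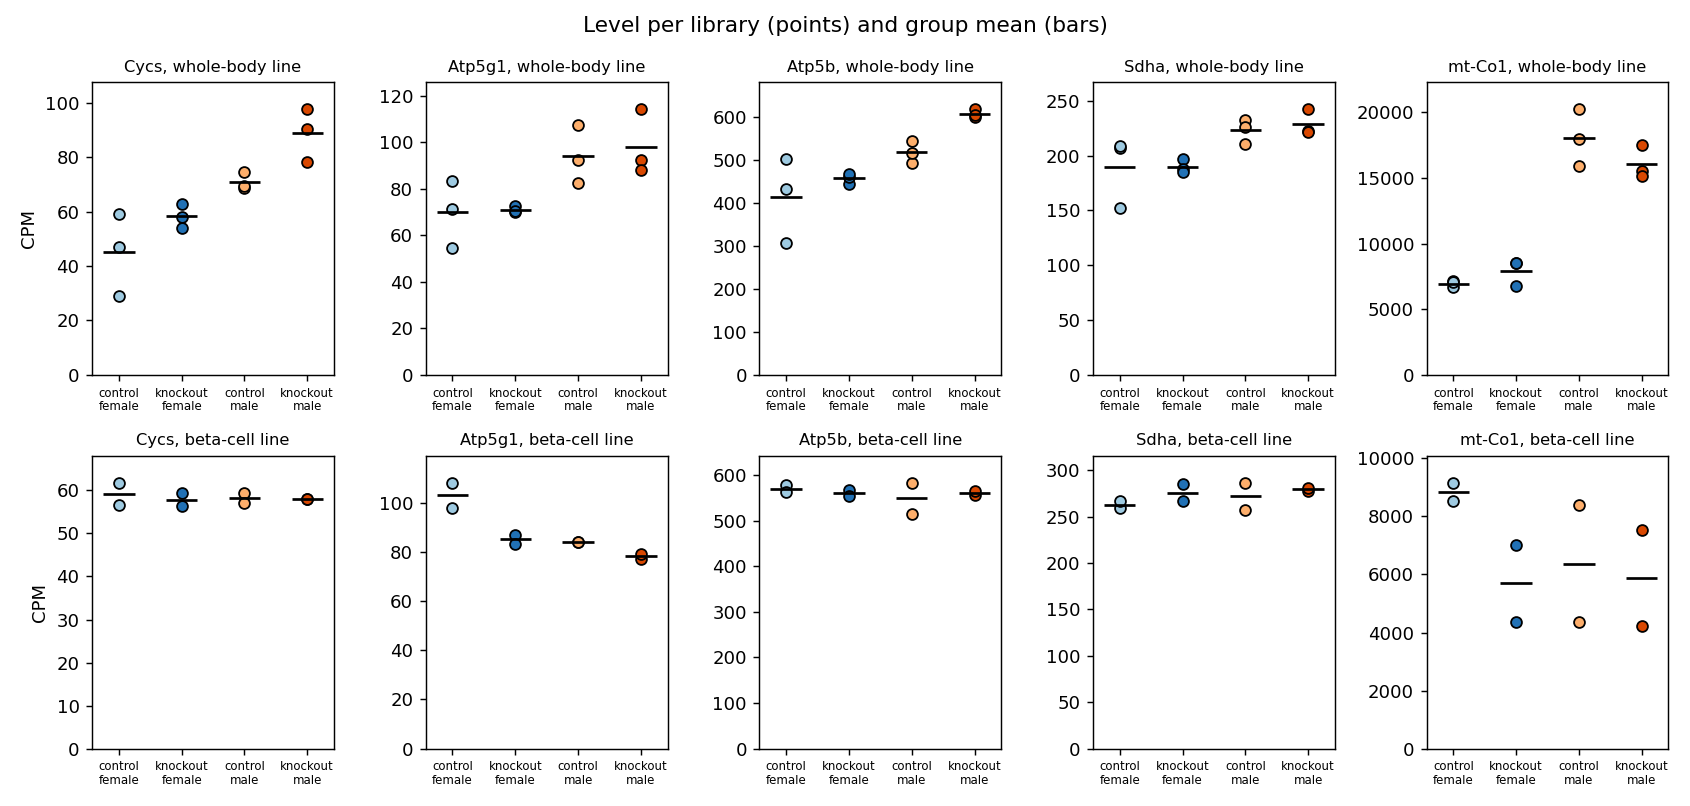
Level in CPM of Cycs, Atp5g1, Atp5b, Sdha and the mitochondrially encoded mt-Co1 in each library (points), with group means (bars), for the whole-body line (top) and the beta-cell line (bottom), axes from 0. Cycs, Sdha and mt-Co1 separate males from females in the whole-body line, and none of the 5 does so in the beta-cell line.

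In the beta-cell line most estimates were lower in males. None of 83 was called between the sexes, where 0.104% of all genes were called, and 73 of 83 estimates were below 0, with a median of -0.092 (log2) against -0.007 over all genes. At an unadjusted p under 0.05 there were 9 members, all lower in males, or 10.8% against 14.3% of all genes in either direction. Cytosolic ribosomal proteins were below 0 in 75 of 76 cases, with a median of -0.293. Of 6 delta and PP cell markers all were below 0, and Sst and Rbp4 were called lower in males, as were the alpha cell markers Irx2 and Gcg. All 11 beta cell markers were above 0 with 0 called, and the part of these markers in the members' lean was not tested. Cycs was at -0.01 (SE 0.07) and Atp5g1 at -0.21 (SE 0.06, edgeR adjusted p = 0.241). Ndufa5, Ndufb6, Ndufb10 and Cox7a2l had all 4 males below all 4 females, as did 5.29% of all genes. No member had all males above all females, as 4.95% of all genes did. Ndufb10 stood at 55.7 to 59.6 CPM in males and 61.9 to 73.7 in females, at -0.20 (SE 0.07, edgeR adjusted p = 0.265).

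The difference of the sex effect between lines was tested as a comparison added after the results were seen. It was 0 called of 83 members in edgeR, where 0.0307% of all genes were called, with 80 of 83 estimates below 0. At an unadjusted p under 0.05 there were 14 members, or 16.9%, which is near the 16.6% of all genes. Atp5g1 had the smallest p, at -0.63 (SE 0.15, adjusted p = 0.0767), followed by Cycs at -0.62 (SE 0.19, adjusted p = 0.135). DESeq2 called 3 members (Atp5g1, Atp5g2 and Cycs), where it called 5.28% of all genes. Without control female 3 of the whole-body line edgeR called 9, where 4.51% of all genes were called. Batch and the recombinase differ between the lines along with the line itself, and their parts cannot be told apart. The ages of females and males also differed by line, and the part of age was not tested.

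The partner subunits made from mitochondrial DNA showed a larger difference between the sexes than the nuclear ones. In the whole-body line 8 of 13 mitochondrially encoded mRNAs were called higher in males, where 3.49% of all genes were. Age was not a covariate here either, and its part was not tested. The largest estimate was that of mt-Co1, the catalytic subunit of complex IV, at 1.20 (log2, SE 0.09, edgeR adjusted p = 0.000136). After it came mt-Nd5 at 1.18, mt-Nd4 at 1.13 and mt-Cytb, the cytochrome of complex III, at 1.09. The others called were mt-Nd2 at 1.05, mt-Nd4l at 1.01, mt-Nd1 at 0.97 and mt-Atp6 at 0.73. The median over the 13 was 0.991, beside 0.171 for the nuclear members. Their summed level was 16350 to 20680 CPM in the 6 females and 33130 to 46520 CPM in the 6 males, without overlap. The count was 7 to 9 when 1 library was left out at a time, where 1.64% to 8.87% of all genes were called in either direction. Control female 1, low for the nuclear members, lay among the other females here, at 17010 CPM.

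In the beta-cell line 0 of the 13 were called between the sexes, and 10 were below 0. Their summed level was 10490 to 22290 CPM in females and 10220 to 20340 CPM in males. For the mean knockout effect of that line all 13 were below 0, with a median of -0.447, and 0 were called. The 2 control females, at 21510 and 22290 CPM, were the highest and knockout male 2, knockout female 2 and control male 2 the lowest, at 10220, 10490 and 10890 CPM, so control and knockout libraries overlapped. Within same-numbered mice the knockout was the lower in 4 of 4 pairs: 16280 against 21510 CPM and 10490 against 22290 in females, and 18340 against 20340 and 10220 against 10890 in males. With replicate number as a block 1 was called, mt-Co2 at -0.85 (SE 0.08, edgeR adjusted p = 0.018), where 0.0491% of all genes were called. That fit put 7.03% of all genes at an unadjusted p under 0.05, against 3.65% without the block. In the whole-body line 8 of the 13 were above 0 for the knockout and 0 were called, with a median of 0.008. The difference of the sex effect between lines was below 0 for all 13. In edgeR 0 of them were called and in DESeq2 8, where 0.0307% and 5.28% of all genes were called. The smallest p was that of mt-Nd5, at -1.32 (SE 0.22, edgeR adjusted p = 0.0552). Leaving out single libraries gave 0 to 6 calls there, where 0.00614% to 4.51% of all genes were called. The runs with 6 calls left out control female 3 of the whole-body line (4.51% of all genes called), or knockout male 1 (0.123%) or control male 1 (0.178%) of the beta-cell line.

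No gene of the other lists of the pathway was called for the mean knockout effect. Of 43 assembly factors 0 were called in either line, with Sdhaf1, an assembly factor of complex II, at 0.23 (log2, SE 0.08, edgeR adjusted p = 0.698) in the whole-body line and Bcs1l, which inserts the Rieske protein into complex III, at -0.19 (SE 0.08, adjusted p = 1.00) in the beta-cell line. Of 18 genes of the citric acid cycle and pyruvate dehydrogenase, and of 12 regulators of mitochondrial genes, 0 were called. Ppargc1a, a coactivator of mitochondrial genes, was at 0.39 (SE 0.19, adjusted p = 0.849) in the whole-body line and at 0.88 (SE 0.36, adjusted p = 1.00) in the beta-cell line. Of 78 mitochondrial ribosomal proteins 0 were called. The subunits Ndufab1, Cox4i1, Cox4i2 and the inhibitor Atpif1, which the name rule misses, had 0 calls as well. Between males and females of the whole-body line 1 of 43 assembly factors (Foxred1) and 1 of 12 regulators (Tfb2m) were called higher in males. So were 1 of 18 genes of the citric acid cycle and pyruvate dehydrogenase (Idh3a) and 1 of 78 mitochondrial ribosomal proteins (Mrps12). Of all genes 3.49% were called higher in males, and the proteasome list also had 1 such call, Psmd1, of 38 tested.

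Markers of several cell types differed along with these comparisons. In whole islets fewer cells of a type and less RNA per cell cannot be told apart. The beta cell markers summed to 250800 to 319600 CPM in males and 162400 to 249000 in females of the whole-body line. Of the 11 estimates 7 were above 0 and 4 below 0. Called higher in males were 3 (Ins1, Iapp and G6pc2) and called lower 0, where 3.49% of all genes were called higher in males. Of the alpha cell markers reported here, Irx2, Ttr and Gcg were called lower in males and Gc higher. All 5 red blood cell markers were called higher in males, with a sum of 108.4 to 333.8 CPM against 39.2 to 91.3. Acinar markers summed to 577.7 to 9310 CPM in knockouts and 2475 to 55070 CPM in controls, with 27 of 27 tested below 0 for the knockout and 0 called. Between the sexes 26 of 27 acinar markers were lower in males, with a median of -1.789 (log2) and 0 called. All 6 delta and PP cell markers were also lower in males, with 0 called. For the knockout all 10 endothelial and all 5 red blood cell markers were above 0, with 0 called. With the acinar level as a covariate the members' median knockout effect was -0.052 in place of 0.116. In males the acinar sums were 577.7 to 1780 CPM in knockouts and 4378 to 13100 CPM in controls, without overlap, while in females they overlapped. That fit thus separates acinar level and genotype poorly in males. No gene of the beta cell, red blood cell and acinar lists was at 0 in every library of the line, and zeros within single groups were not counted. The part of the beta cell, alpha cell, delta and PP cell, endothelial and red blood cell markers in the members' differences was not tested.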

How the data were processed

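The submitters' processing notes name STAR 2.5.3a, RSEM 1.3.0 and mm10. What the authors deposited are expected counts per gene from RSEM, whole numbers with no scaling to depth. Which annotation and strand setting were used, and whether the molecular identifiers of the adapters were, is not given in the sources used here. The beta-cell tables are short of low-count genes (the rule is not given). Their 16612 genes in females and 16767 in males were joined on the 16284 shared.

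Positions and exon lengths came from GENCODE's GRCm38 annotation and promoters from RefSeq. TMM factors and filterByExpr preceded a robust quasi-likelihood fit in edgeR 4.0.16 (R 4.3.3) with 1 mean per group, for 12 whole-body libraries (18359 genes), 8 beta-cell libraries (16284) and all 20. Called means an adjusted p (Benjamini-Hochberg over all genes of a fit) under 0.05. The script was tested on simulated data. Intervals are at 95% confidence, and counting limits cover counting error only. DESeq2 1.42.0, limma 3.58.1 (voom) and other settings were alternatives.

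Members and gene lists were chosen with earlier results of these data known. Part of the alpha cell marker list is not reported here. Members named were those called, those with the smallest p per complex and direction in each line's mean knockout effect, those with the highest and lowest levels, paralogue sets with tissue-specific forms, the 4 Sdh genes, and the leading genes of the other lists. Members without overlap between groups, and those at an unadjusted p under 0.05, were named after their values were seen. Replicate numbers were taken to pair mice in the beta-cell line, where mice of a sex with the same number were of equal age and departed from their group means together (correlation across genes 0.22 in females and 0.393 in males, 1 value per sex since pairs of 2 mirror each other). In the whole-body line these correlations were -0.227 to 0.171, and no pairing was assumed.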

Additional observations from a re-analysis of the deposited data

How the results depend on the processing

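The limits are the 2 or 3 mice per group and control female 1 of the whole-body line. The member median varied between replicates with an SD of 0.246 (log2) in that line and 0.055 in the beta-cell line. Members called in the knockout comparisons stayed at 0 under each alternative run: DESeq2, voom, RLE factors, no filter, the replicate block, the acinar covariate, the length offset, age, and leaving out each library. With replicate number as a block the pairing changed no call of a member. The estimates, SEs and intervals given for the beta-cell line come from the fit without that pairing. For its mean knockout effect the block put 7.03% of all genes at an unadjusted p under 0.05, against 3.65% without it.

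Members called between the sexes of the whole-body line were 5 with DESeq2, 1 without a filter and 1 with the acinar covariate. They were 6 with the length offset and 0 to 12 when leaving out single libraries. Of all genes 9.08% were called with DESeq2, 2.5% without a filter, 11.7% with the acinar covariate and 8.24% with the length offset. Leaving out single libraries gave 1.64% to 8.87% of all genes. For the sex difference between lines, DESeq2 gave 3 and single left-out libraries 0 to 9, where 5.28% and 0.00614% to 4.51% of all genes were called. Of the mitochondrially encoded mRNAs DESeq2 gave 8 and the length offset 2 in that comparison, and left-out libraries 0 to 6. With the length offset 0.27% of all genes were called there. The block gave 1 for the beta-cell knockout, where 0.0491% of all genes were called. These counts for mitochondrially encoded mRNAs and for the difference between lines were added after seeing the data.

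With the length offset the members' median was -0.023 for beta-cell females, 0.015 for the male minus female knockout difference and -0.029 between the sexes. Left-out libraries moved it from -0.063 to 0.420 (whole-body females), from -0.351 to 0.117 (male minus female there) and from -0.088 to 0.032 (beta-cell males). Among named members, none of them called, Sdhc turned to -0.016 with the acinar covariate, and left-out libraries spanned -0.082 to 0.086 for Atp5d, -0.197 to 0.066 for Uqcrq and -0.051 to 0.002 for Cycs in the beta-cell line. The cause was not tested.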
